A study of Mus musculus with 19 samples.

Results

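The 9 genes described here encode brain-derived neurotrophic factor (*Bdnf*), the neurotrophin receptors TrkB (*Ntrk2*), TrkC (*Ntrk3*) and p75NTR (*Ngfr*), the sorting receptor sortilin (*Sort1*), and the receptors for the GDNF family, Ret with its co-receptors GFRα1 (*Gfra1*), GFRα2 (*Gfra2*) and GFRα3 (*Gfra3*). They were chosen by name, and all 9 were found among the 12629 genes of the deposited expression table. RNA was sequenced from 19 libraries of GFP-positive cells that had been sorted by FACS from dissociated dorsal root ganglia (DRGs). Adult animals received AAV5 into the left C5 to C8 DRGs, and the ganglia were taken 8 weeks later. The 5 GFP-naive libraries came from ganglia injected with AAV5-fGFP, without axotomy. The 6 α9k1-naive libraries came from ganglia injected with AAV5-α9-V5, which encodes α9 integrin, and AAV5-kindlin1-GFP, which encodes its activator kindlin-1, also without axotomy. In the 4 GFP-crush and the 4 α9k1-crush libraries, the same vectors were combined with a crush of the dorsal roots at the time of injection. All groups thus carried AAV5 and GFP. Per the study's methods, a CMV promoter drove fGFP and kindlin1-GFP and a CAG promoter drove α9-V5, so that sorting on GFP selected cells with the kindlin-1 vector, and expression was not limited to neurons by the promoters. The labels name C57BL/6 mice, whereas the study's methods name adult male Lewis rats, and the reads were aligned to the mouse genome in either case.

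Neurotrophins are secreted factors that bind Trk receptor tyrosine kinases with high affinity and p75NTR with lower affinity. TrkB binds BDNF and neurotrophin-4, and TrkC binds neurotrophin-3. Sortilin binds proneurotrophins together with p75NTR and also sorts proBDNF inside the cell. Ligands of the GDNF family bind a GPI-anchored co-receptor, GFRα1 for GDNF, GFRα2 for neurturin and GFRα3 for artemin, and the complex then engages Ret. In the DRG, TrkC marks proprioceptors and some mechanoreceptors, TrkB marks a class of mechanoreceptors, and Ret marks non-peptidergic nociceptors and rapidly adapting mechanoreceptors. Satellite glia and Schwann cells can also express p75NTR and a truncated TrkB that lacks the kinase.

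The genes are protein coding, and their positions are those of GRCm38. *Bdnf* (ENSMUSG00000048482) is at chr2:109674700-109727007, *Ntrk2* (ENSMUSG00000055254) at chr13:58806596-59133970, *Ntrk3* (ENSMUSG00000059146) at chr7:78175959-78738012 and *Ngfr* (ENSMUSG00000000120) at chr11:95568818-95587735. *Sort1* (ENSMUSG00000068747) is at chr3:108284082-108361511 and *Ret* (ENSMUSG00000030110) at chr6:118151745-118197718. *Gfra1* (ENSMUSG00000025089) is at chr19:58235604-58455909 and *Gfra2* (ENSMUSG00000022103) at chr14:70890130-70979838, and *Gfra3* is placed further below. Values are per gene, so splice forms were not told apart. In GENCODE vM21 the coding transcripts of *Ntrk2* include one of 821 residues, the length of TrkB with its kinase, and one of 476 residues, that of a truncated TrkB. Exons of *Bdnf*, *Sort1* and *Gfra1* overlap the genes Gm45346, Gm12523 and Gm16277 on the other strand, which are not among the genes of the table, and reads of a pair like these cannot be told apart without strand.

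Start regions of the genes that were called most often are shown because *Bdnf* and *Ntrk2* were higher and *Ngfr* was lower in the same α9k1-naive libraries. RefSeq windows of GRCm38.p6, from 250 bases before to 50 bases after an annotated start, were given for 4 of the 9 genes, namely 7 windows for *Bdnf* and 1 each for *Ntrk2*, *Ngfr* and *Gfra1*. They were searched on both strands for a cAMP response element (CRE, TGACGTCA), its half-site (TGACG, which the full CRE contains) and an AP-1 site (TGANTCA). Among all 32851 windows of this kind, 1.79% hold the CRE, 20.8% its half-site and 7.81% the AP-1 site. Of the 10 windows of these genes, 1 of *Bdnf* holds an AP-1 site and another of *Bdnf* a CRE half-site. The windows of *Ntrk2* and *Ngfr* hold none of these letters and are shown as the starts of the other called genes. Capitals mark the match, and each window reads in the direction of its gene.
Bdnf, chr2:109676782-109677081, plus strand, AP-1 letters in capitals: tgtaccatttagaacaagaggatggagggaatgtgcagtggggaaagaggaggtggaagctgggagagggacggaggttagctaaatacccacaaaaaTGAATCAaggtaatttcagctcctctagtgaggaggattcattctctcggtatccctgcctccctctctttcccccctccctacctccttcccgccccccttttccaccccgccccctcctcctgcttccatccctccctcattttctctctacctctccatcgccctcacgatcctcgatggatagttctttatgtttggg
Bdnf, chr2:109692186-109692485, plus strand, CRE half-site in capitals: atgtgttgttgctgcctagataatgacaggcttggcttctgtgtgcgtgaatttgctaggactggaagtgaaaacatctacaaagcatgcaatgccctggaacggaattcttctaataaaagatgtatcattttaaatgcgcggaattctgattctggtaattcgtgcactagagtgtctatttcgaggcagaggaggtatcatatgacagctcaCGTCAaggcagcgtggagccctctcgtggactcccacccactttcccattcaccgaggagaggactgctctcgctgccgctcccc
Ntrk2, chr13:58806319-58806618, plus strand: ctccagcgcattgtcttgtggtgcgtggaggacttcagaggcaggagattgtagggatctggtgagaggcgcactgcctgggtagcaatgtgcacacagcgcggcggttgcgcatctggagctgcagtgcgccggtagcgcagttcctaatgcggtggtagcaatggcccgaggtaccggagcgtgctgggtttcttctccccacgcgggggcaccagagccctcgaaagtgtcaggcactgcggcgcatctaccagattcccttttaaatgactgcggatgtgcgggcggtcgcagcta
Ngfr, chr11:95587649-95587948, minus strand: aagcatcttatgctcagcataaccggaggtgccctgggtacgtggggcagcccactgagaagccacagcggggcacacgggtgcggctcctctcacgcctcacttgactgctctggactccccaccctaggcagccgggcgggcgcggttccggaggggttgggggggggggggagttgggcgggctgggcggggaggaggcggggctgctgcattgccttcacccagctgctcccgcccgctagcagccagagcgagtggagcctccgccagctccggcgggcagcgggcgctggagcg
The windows are those of the mouse genome to which the reads were aligned. If the animals were rats, as the study's methods say, these are not the animals' own sequence. Which *Bdnf* start was in use cannot be read from values per gene. The windows differ in base composition, with 71.7% G and C for *Ngfr*, 61.3% for *Ntrk2*, and 53.0% and 48.7% for the *Bdnf* windows shown.

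The deposited values are log2 normalized expression, adjusted for gene length and depth. The libraries held 36.4 to 87.6 M read pairs each. Of the reads 47.5% to 54.1% aligned, with a mismatch rate of 3.87% to 4.05%. If the reads came from rats, genes may differ in how well they align to the mouse genome, which the adjustment does not remove. Levels compared between genes below hold for the deposited values only. Fermt1 (kindlin-1) was at 5.18 to 7.73 in α9k1 and at 0.42 to 0.80 in GFP libraries, and Itga9 (α9 integrin) at 2.38 to 7.51 and at 0.90 to 2.40, so that a GFP-naive and an α9k1-naive library overlapped. All 10 general markers of sensory neurons were in the table, at the 56.1 to 99.9 percentile of all genes. All 15 markers of satellite glia and Schwann cells were in it too, and none was near the floor of the table, the lowest value being 2.30 (*Kcnj10*). Their summed level lay between 14.55 and 16.84 on the log2 scale, above that of the neuronal markers, which lay between 12.36 and 13.24, and most of it was *Apoe*, at 14.02 to 16.74. RNA of glial genes was thus present in the sorted samples. In such bulk samples, fewer cells of a type and less RNA per cell cannot be told apart.

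Differences were tested with limma in 1 fit to all 19 libraries, with 3 covariates that summarise alignment and sequencing metrics, and a gene was called at an adjusted p under 0.1 over all genes. Between groups lay 74.5% of the variance of the third covariate. It correlated with *Ngfr* at r = 0.79, with *Ntrk2* at -0.73 and with *Gfra3* at -0.72. With covariates the SEs of differences with α9k1-crush were larger than without. Between α9k1-naive and GFP-naive, 3 of the 9 genes were called (*Bdnf* and *Ntrk2* higher, *Ngfr* lower), where 29.1% of all genes were. Between GFP-crush and GFP-naive, 1 gene was called (*Ntrk2*, lower), where 23.1% of all genes were. Between α9k1-crush and α9k1-naive, 2 were called (*Ntrk2* lower, *Ngfr* higher), where 9.74% of all genes were. Between α9k1-crush and GFP-crush, limma called 0 of the 9 genes, with 1 (*Bdnf*) at an unadjusted p under 0.05, where 0.911% of all genes were called. The interaction, the difference of the α9k1 difference between crushed and naive ganglia, was called for 1 gene (*Ngfr*), where 2.20% of all genes were called. In naive ganglia, values with α9k1 and with GFP did not overlap for 3 genes (*Bdnf*, *Ntrk2* and *Ngfr*), where 21.7% of all genes showed no overlap, and after crush for 3 (*Bdnf*, *Ngfr* and *Gfra1*), where 40.8% did. Values with and without crush did not overlap for 1 gene with GFP (*Ntrk2*), against 19.8% of all genes, and for 4 with α9k1 (*Ngfr*, *Gfra1*, *Ntrk2* and *Gfra3*), against 33.4%. The median log2 fold change of the 9 genes with α9k1 was 0.02 in naive and 0.28 in crushed ganglia, and with crush it was -0.11 for GFP and -0.13 for α9k1. Over all genes these medians were -0.08, 0.01, -0.08 and 0.00. Without covariates, the 9 genes gave 5 calls for α9k1 in naive ganglia (46.0% of all genes), 7 for α9k1 after crush (58.0%), 1 for crush with GFP (31.1%), 5 for crush with α9k1 (55.6%) and 3 interactions (39.4%). These shares of all genes were high, so the number of the 9 genes that passed is not in itself a result about them. The comparisons share groups of libraries and are not independent of each other.

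**Figure D1:**
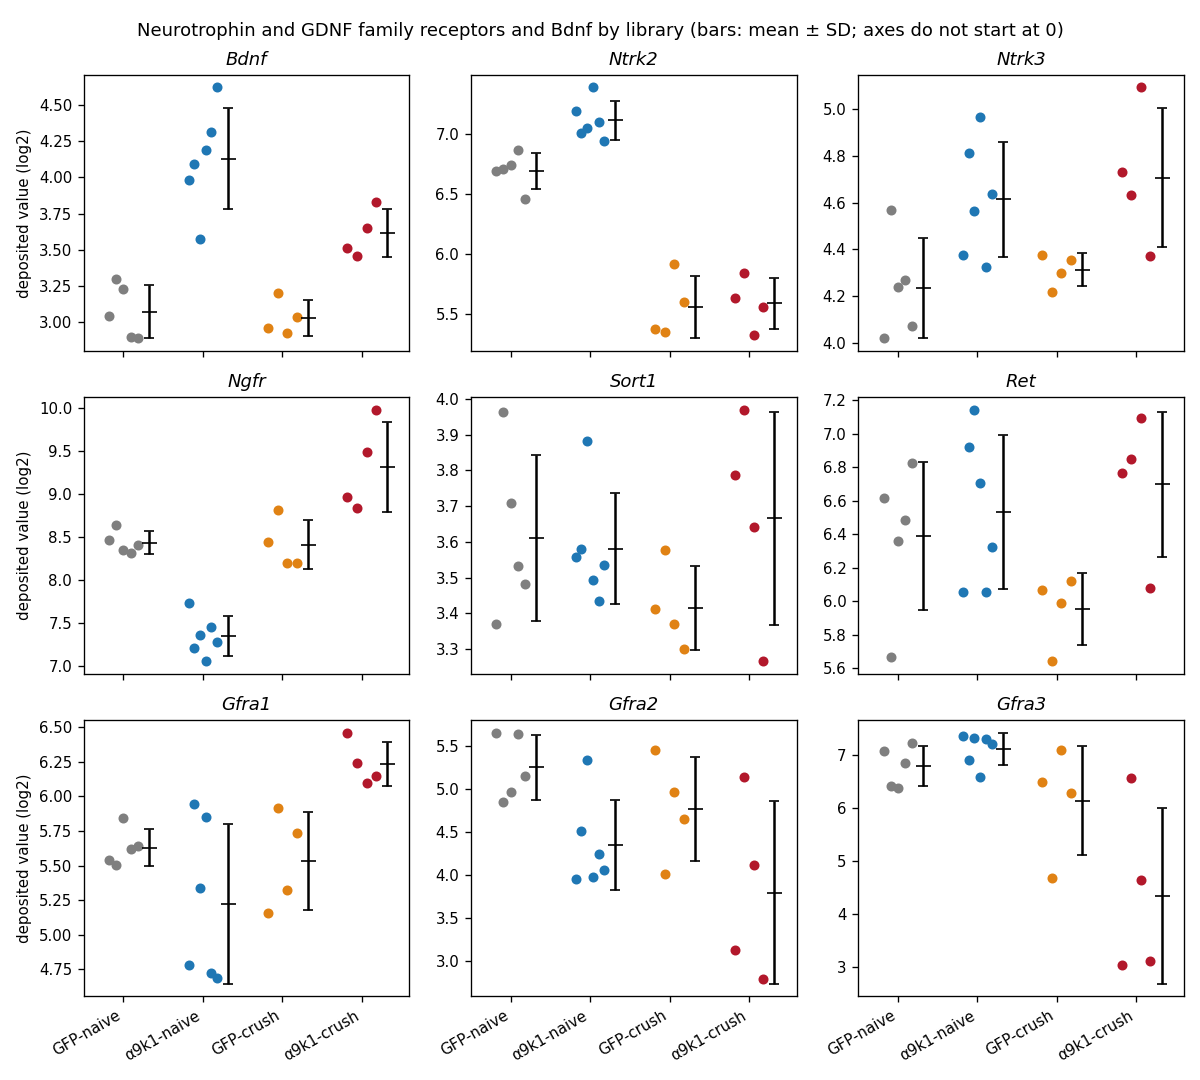
Deposited log2 values of the 9 genes in each library (points, in order of replicate number) with the mean ± SD of each group (bars), with 5 libraries for GFP-naive, 6 for α9k1-naive and 4 for each crush group; each panel has its own axis, which does not start at 0. *Bdnf* was higher in α9k1 than in GFP libraries, *Ntrk2* was lower in crush than in naive libraries, *Ngfr* was lowest in α9k1-naive and highest in α9k1-crush, and *Gfra3* had the widest spread, in α9k1-crush.

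*Ngfr* had the highest deposited level of the 9 genes, with a mean of 8.27 over the 19 libraries, which is the 96.5 percentile of all genes. *Ret* (6.41), *Ntrk2* (6.36) and *Gfra3* (6.24) followed at the 82.2 to 84.2 percentile. *Gfra1* was at 5.61, and *Gfra2* and *Ntrk3* were at 4.56 and 4.47, near the middle of all genes. *Sort1* (3.57) and *Bdnf* (3.51) were the lowest, at the 32.1 and 30.6 percentile. Neighbours in this order overlapped across libraries, apart from *Ntrk3* and *Sort1*.

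*Bdnf*, the only ligand among the 9 genes, rose with α9k1 in naive ganglia. After crush all α9k1 values were above all GFP values too, but that difference was called only without covariates. In GFP-naive libraries 1 to 5 its values were 3.04, 3.30, 3.23, 2.90 and 2.89, and in the 6 α9k1-naive libraries they ran from 3.58 over a median of 4.14 to 4.62. The 2 groups did not overlap, and the lowest α9k1-naive value was still above the highest GFP-naive value. The log2 fold change was 1.25 (SE 0.19, 95% interval 0.86 to 1.65, adjusted p = 2.32e-04), or 2.38-fold. Leaving out any 1 of the 19 libraries gave 0.94 to 1.33, called each time. In GFP-crush libraries 1 to 4 the values were 2.96, 3.20, 2.92 and 3.03, and in α9k1-crush libraries 3.51, 3.46, 3.65 and 3.83. These groups did not overlap either. Here the log2 fold change was 1.17 (SE 0.41, interval 0.30 to 2.03), which was not called with covariates (adjusted p = 0.363). Without covariates it was 0.58 (SE 0.17) and was called (adjusted p = 0.00771). Between GFP-crush and GFP-naive the difference was -0.23 (interval -0.63 to 0.17, adjusted p = 0.422), and their libraries overlapped. Among α9k1 libraries, those with crush had a lower mean (3.61 ± 0.17, SD, n = 4) than those without (4.13 ± 0.35, n = 6), with overlap, and the log2 fold change of -0.32 was not called (adjusted p = 0.639) and turned to 0.33 in a fit to these groups alone. Without covariates it was -0.52 and was called (adjusted p = 0.00977). The interaction missed the threshold, at -0.08 with covariates (interval -0.90 to 0.73, adjusted p = 0.952) and at -0.47 without (adjusted p = 0.112), though it was called there without α9k1-crush replicate 4, α9k1-naive replicate 3 or GFP-naive replicate 2 (-0.59 to -0.53). Markers of other cells differed in the same comparison of naive ganglia. Of 9 measured macrophage markers 7 rose with α9k1 (median log2 fold change 1.15), and their summed level was 7.79 to 8.31 in GFP-naive and 9.09 to 9.66 in α9k1-naive. All 8 measured markers of endothelial cells and fibroblasts fell (median -1.69), with summed levels of 9.58 to 9.90 and 6.98 to 8.38. With crush for GFP, 7 macrophage markers rose (median 1.62) and 5 of endothelial cells and fibroblasts fell (median -1.12), and with crush for α9k1, 2 macrophage markers and 5 of endothelial cells and fibroblasts rose (medians 0.81 and 1.59). Without covariates 3 markers of each list rose with crush for α9k1 (medians 0.37 and 0.44). Their part in the differences of *Bdnf*, *Ntrk2* and *Ngfr* was not tested.

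*Ntrk2* fell after dorsal root crush with either vector, and was higher with α9k1 in naive ganglia. Values in GFP-naive libraries 1 to 5 were 6.70, 6.72, 6.74, 6.87 and 6.46, and those in GFP-crush libraries 1 to 4 were 5.37, 5.35, 5.92 and 5.60. In α9k1-naive libraries they ran from 6.94 over a median of 7.08 to 7.39, and in α9k1-crush libraries 1 to 4 they were 5.64, 5.84, 5.33 and 5.56. All crush libraries were below all naive libraries, and all α9k1-naive libraries were above all GFP-naive libraries, whereas GFP-crush and α9k1-crush overlapped over nearly their whole range. The log2 fold change of GFP-crush versus GFP-naive was -1.16 (SE 0.16, 95% interval -1.51 to -0.82, adjusted p = 4.24e-04), a 2.24-fold lower level. That of α9k1-crush versus α9k1-naive was -1.16 as well (SE 0.29, adjusted p = 0.0301), and -1.52 without covariates (SE 0.13, adjusted p = 3.85e-08). Both were called whichever of the 19 libraries was left out, though the latter was not in a fit to these groups alone (-1.25, adjusted p = 0.230). The interaction was 0.00 with an interval from -0.70 to 0.71, and -0.39 without covariates (adjusted p = 0.118), where it was called in 5 of 19 refits with 1 library fewer (without α9k1-crush replicate 2, α9k1-naive replicate 6, GFP-crush replicate 1 or 2, or GFP-naive replicate 4). In naive ganglia the α9k1 difference was 0.49 (SE 0.16, interval 0.14 to 0.83, adjusted p = 0.0421), or 1.40-fold. It was not called without GFP-crush replicate 3 (0.36, adjusted p = 0.108), and it was 0.79 without α9k1-naive replicate 6 and 0.26, not called, with only the 2 groups in the fit (adjusted p = 0.165). After crush the α9k1 difference was 0.49 (interval -0.26 to 1.23, adjusted p = 0.722), from 0.28 without α9k1-naive replicate 4 to 0.78 without α9k1-naive replicate 6, and 0.03 without covariates (interval -0.26 to 0.32).

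The summed level of glial markers, most of it *Apoe*, moved with *Ntrk2*, whereas single markers moved in both directions. The summed level of the 15 markers of satellite glia and Schwann cells was 15.83 to 16.20 in GFP-naive, 16.34 to 16.84 in α9k1-naive, 15.17 to 15.49 in GFP-crush and 14.55 to 15.21 in α9k1-crush on the log2 scale. Across the 19 libraries *Ntrk2* correlated with it at r = 0.95, and at 0.85 after values were centred within each group. The libraries share preparation and composition, so this is a description. Of the 15 markers, 1 rose and 6 fell with crush for GFP (median log2 fold change -0.43), 4 rose and 4 fell with crush for α9k1 (median -0.10), and 4 rose and 7 fell with α9k1 in naive ganglia (median -0.49). Without covariates these were 1 and 8 (median -0.43), 4 and 8 (-0.43), and 3 and 9 (-0.41). With α9k1 after crush 0 were called with covariates, and 1 rose and 10 fell without (median -0.54). *Fabp7*, a lipid-binding protein of satellite glia, had log2 fold changes of -1.05 after crush with GFP, -2.28 after crush with α9k1 and 0.54 for α9k1 in naive ganglia, and those of *Apoe*, a glial apolipoprotein, were -0.93, -1.68 and 0.89, all called. These 2 markers were chosen after their values were seen. Their part in the *Ntrk2* differences was not tested. The general neuronal markers had a summed level of 12.52 to 12.83 in GFP-naive and of 13.06 to 13.24 in GFP-crush, and r with *Ntrk2* was -0.95, and -0.69 within groups.

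**Figure D2:**
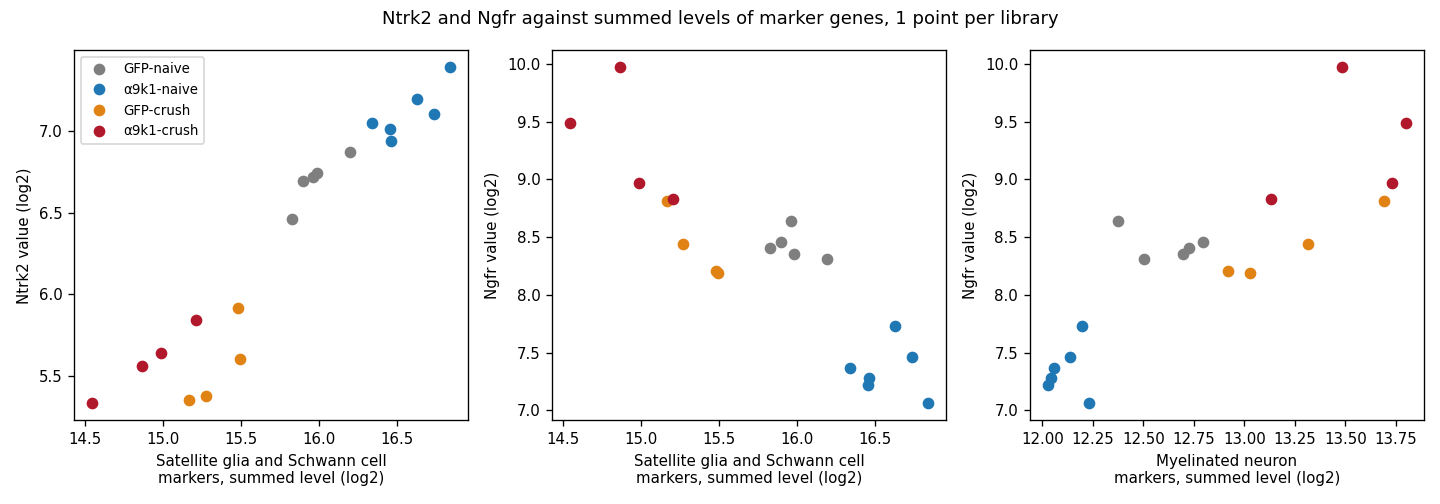
Deposited log2 values of *Ntrk2* (left) and *Ngfr* (middle and right) against the log2 summed level of the 15 markers of satellite glia and Schwann cells (left and middle) or of the 7 measured markers of myelinated neurons (right), with 1 point per library and colours for the 4 groups. *Ntrk2* was high where the glial sum was high (r = 0.95), and *Ngfr* was low there (r = -0.89) and high where the sum of myelinated neuron markers was high (r = 0.86).

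*Ntrk3* stayed within a narrow range of 4.02 to 5.09, and no difference was called with covariates. Without crush its mean was 4.23 ± 0.22 (SD, n = 5) with GFP and 4.61 ± 0.25 (n = 6) with α9k1, and after crush it was 4.31 ± 0.07 (n = 4) with GFP and 4.71 ± 0.30 (n = 4) with α9k1. All groups overlapped. The α9k1 difference was 0.27 in naive ganglia (interval -0.12 to 0.65, adjusted p = 0.317) and 0.62 after crush (interval -0.21 to 1.46, adjusted p = 0.676), the latter 0.41 without α9k1-naive replicate 4. Without covariates these were 0.38 and 0.40, and both were called (adjusted p = 0.0354 and 0.0467), the latter not without α9k1-crush replicate 3. Markers of proprioceptors, the neurons that depend on TrkC, had a summed level of 7.10 to 8.21 in GFP-naive, 6.95 to 7.51 in α9k1-naive, 7.80 to 8.81 in GFP-crush and 8.36 to 9.33 in α9k1-crush. *Ntrk3* correlated with this sum at r = 0.09, and at -0.04 within groups.

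*Ngfr* fell with α9k1 in naive ganglia and rose with crush in α9k1 ganglia. The α9k1 difference itself differed between naive and crushed ganglia, at the edge of the threshold. Its values in GFP-naive libraries 1 to 5 were 8.46, 8.64, 8.35, 8.31 and 8.40, and in α9k1-naive libraries they ran from 7.06 over a median of 7.33 to 7.73. The α9k1-naive libraries were all below the GFP-naive libraries. The log2 fold change was -1.27 (SE 0.20, 95% interval -1.70 to -0.84, adjusted p = 4.08e-04), a 2.41-fold lower level, and the call held whichever of the 19 libraries was left out. In GFP-crush libraries 1 to 4 the values were 8.44, 8.81, 8.20 and 8.19, and in α9k1-crush libraries 8.97, 8.83, 9.49 and 9.97. The α9k1-crush libraries were all above the GFP-crush libraries, though the closest values, 8.83 and 8.81, nearly met. With covariates this difference was 0.28 (interval -0.66 to 1.22, adjusted p = 0.907) and was not called, and it turned to -0.15 without α9k1-crush replicate 4 and to -0.34 with the replicate number as a block. Without covariates it was 0.90 and was called (SE 0.21, adjusted p = 0.00157). GFP-crush and GFP-naive overlapped, with a difference of -0.11 (interval -0.54 to 0.33, adjusted p = 0.765). Within α9k1, crush libraries were all above naive libraries, and the log2 fold change was 1.44 (SE 0.36, adjusted p = 0.0315), and 1.96 without covariates (SE 0.19, adjusted p = 2.11e-07). It was not called without α9k1-naive replicate 4 (1.44, adjusted p = 0.111), in a fit to these groups alone (2.43, adjusted p = 0.126) or with the replicate number as a block (1.14, adjusted p = 0.287). The interaction was 1.55 (SE 0.42, interval 0.66 to 2.44) at an adjusted p = 0.0996, just under the threshold, and the call held in 4 of 19 refits with 1 library fewer (those without α9k1-crush replicate 1 or 2 or α9k1-naive replicate 5 or 6). It was not called after median centring (1.42, adjusted p = 0.147) or with the replicate number as a block (1.14, adjusted p = 0.465). Without covariates it was 1.98 (SE 0.27, adjusted p = 7.56e-05) and was called in all 19 such refits.

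Markers of myelinated neurons moved with *Ngfr* in the comparisons in which it was called. Of the 7 measured markers of myelinated neurons, 6 fell and 1 rose with α9k1 in naive ganglia (median log2 fold change -2.10), and 5 rose and 1 fell with crush in α9k1 ganglia (median 2.71). With crush for GFP, where *Ngfr* was not called, 3 rose and 0 fell (median 0.40). The interaction was called for 4 of them, all above 0 (median 1.74). Their summed level was 12.37 to 12.80 in GFP-naive, 12.03 to 12.23 in α9k1-naive, 12.92 to 13.69 in GFP-crush and 13.13 to 13.80 in α9k1-crush. *Ngfr* correlated with it at r = 0.86, and at 0.38 within groups. With the sum of the 15 glial markers *Ngfr* correlated at -0.89, and at -0.50 within groups. The part of these cells in the *Ngfr* differences was not tested. *Sort1*, which forms a complex with p75NTR, had r = 0.00 with *Ngfr*. It lay between 3.27 and 3.97 in all libraries, all 4 groups overlapped, and with all libraries no difference was called with or without covariates. Its α9k1 difference was -0.08 in naive ganglia (interval -0.45 to 0.29) and 0.01 after crush (interval -0.80 to 0.83), the latter 0.25 without covariates (adjusted p = 0.167), and then 0.39 and called without α9k1-crush replicate 4 (adjusted p = 0.0326).

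**Figure D3:**
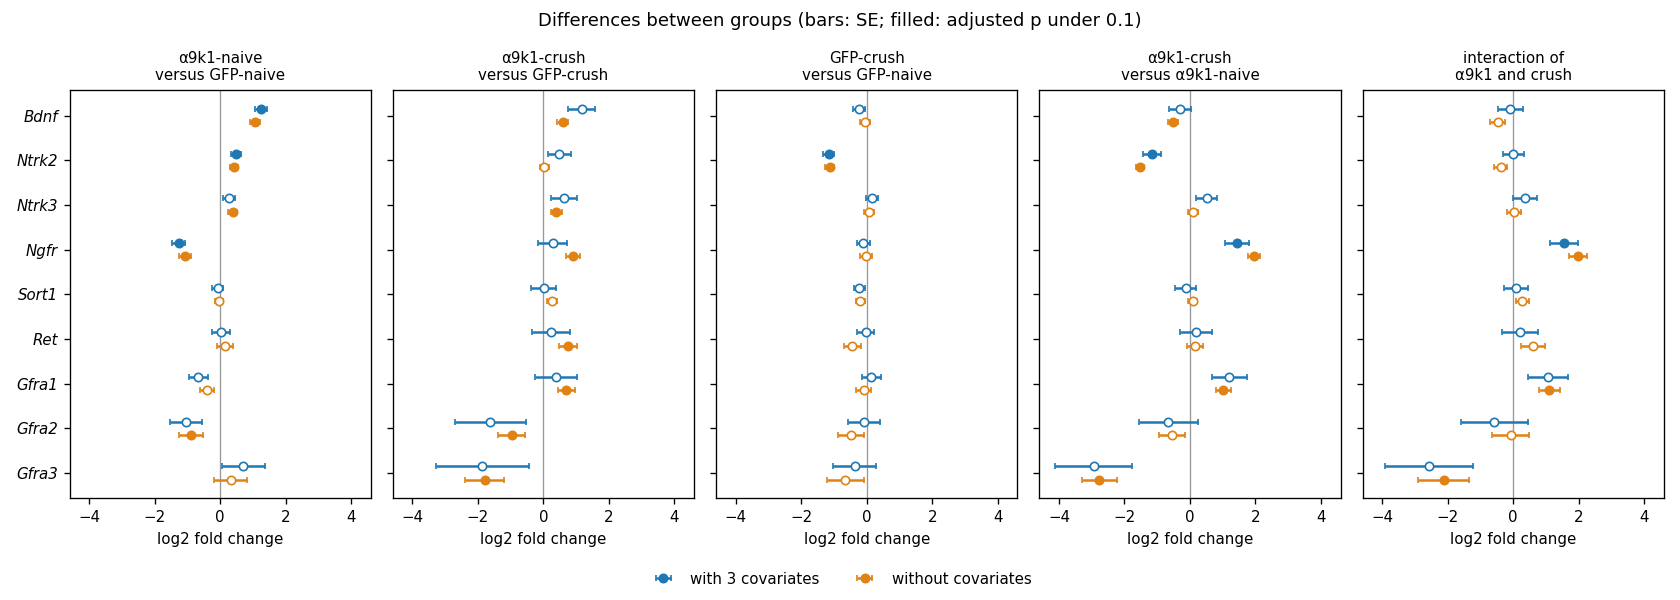
Log2 fold changes (points) with their SE (bars) of the 9 genes in 4 comparisons and in the interaction of α9k1 and crush, from limma with the 3 covariates (blue) and without them (orange); filled points are genes with an adjusted p under 0.1. The bars with covariates are widest in comparisons with α9k1-crush, and filled blue points are those of *Bdnf*, *Ntrk2* and *Ngfr* alone.

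*Ret*, the signalling receptor of the GDNF family, was not called in any comparison with covariates. Values in GFP-naive libraries 1 to 5 were 6.62, 5.67, 6.36, 6.48 and 6.83, and in α9k1-naive libraries they ran from 6.05 over a median of 6.52 to 7.14. In GFP-crush libraries 1 to 4 they were 6.07, 5.64, 5.99 and 6.12, and in α9k1-crush libraries 6.77, 6.85, 7.09 and 6.08. Of the α9k1-crush libraries, 3 were above all GFP-crush libraries and replicate 4 was among them. The difference was 0.24 with covariates (SE 0.58, adjusted p = 0.947), and below 0 without α9k1-naive replicate 1, GFP-crush replicate 2 (the lowest, -0.19) or GFP-naive replicate 1. The fit without covariates gave 0.74, which was called (SE 0.27, adjusted p = 0.0301). *Ret* correlated with the first covariate at r = 0.74, so that much of its variation between libraries went with that summary of the sequencing metrics. This was not particular to *Ret*, since *Ngfr*, *Ntrk2* and *Gfra3* correlated about as strongly with the third covariate, in either direction.

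*Gfra1*, the GDNF co-receptor, had its highest deposited values in α9k1-crush, though no difference was called with covariates. Values in α9k1-crush libraries 1 to 4 were 6.46, 6.24, 6.10 and 6.14, and in GFP-crush libraries 5.16, 5.92, 5.33 and 5.73. In GFP-naive libraries 1 to 5 they were 5.54, 5.50, 5.84, 5.62 and 5.64, and in α9k1-naive libraries they ran from 4.69 over a median of 5.06 to 5.94. Every α9k1-crush library was above every other library. The α9k1-naive libraries were split, with replicates 1, 5 and 6 at 4.78, 4.72 and 4.69 and the others at 5.34 to 5.94. With covariates the difference was 0.39 for α9k1-crush versus GFP-crush (interval -0.98 to 1.76, adjusted p = 0.915) and 1.20 for α9k1-crush versus α9k1-naive (interval 0.06 to 2.33, adjusted p = 0.207). The former turned to -0.41 without α9k1-naive replicate 4 and to -0.59 in a fit to these groups alone. The latter was 0.29 without α9k1-naive replicate 4, and 1.56 and called without α9k1-naive replicate 2 (adjusted p = 0.0958). In naive ganglia the α9k1 difference was -0.67 (SE 0.29, adjusted p = 0.121), and it was called without α9k1-crush replicate 3, α9k1-naive replicate 2 or 4, or GFP-crush replicate 1 (-0.80 to -0.68), whereas it was -0.42 without α9k1-naive replicate 6 (adjusted p = 0.540). Without covariates both differences with α9k1-crush were called, at 0.70 (SE 0.25, adjusted p = 0.0282) and 1.01 (SE 0.23, adjusted p = 0.00152), and so was the interaction, at 1.11 (SE 0.33, adjusted p = 0.0194).

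*Gfra2* and *Gfra3* (ENSMUSG00000024366, chr18:34689903-34720387 in GRCm38), the co-receptors for neurturin and artemin, varied most of the 9 genes within each crush group. *Gfra3* was at 3.03, 6.56, 4.65 and 3.12 in α9k1-crush libraries 1 to 4 and at 6.49, 4.68, 7.08 and 6.29 in GFP-crush libraries. In GFP-naive libraries 1 to 5 it was at 7.06, 6.41, 6.38, 6.85 and 7.23, and in α9k1-naive libraries from 6.59 over a median of 7.25 to 7.36. The α9k1-crush libraries thus lay far apart, with replicate 2 as high as some naive libraries. All were below all α9k1-naive libraries, with 6.56 and 6.59 as the closest values. The log2 fold change between them was -2.94 (SE 1.18, interval -5.45 to -0.43, adjusted p = 0.165), which was not called with covariates. It was -3.58 and called without α9k1-crush replicate 2 (adjusted p = 0.0267), -3.91 and called without GFP-crush replicate 2 (adjusted p = 0.0579), and -1.79 without α9k1-naive replicate 4 (adjusted p = 0.507). With covariates it was also called with array weights (-3.29, adjusted p = 0.0516) and in a fit to these groups alone (-6.88, adjusted p = 0.0973). Without covariates it was -2.77 (SE 0.54, adjusted p = 3.87e-04). The difference from GFP-crush was -1.87 with covariates (SE 1.42, adjusted p = 0.746), from -3.78 without GFP-crush replicate 2 to -0.90 without α9k1-naive replicate 4, and -1.79 without covariates (SE 0.59, adjusted p = 0.0173), where it was called. The interaction was -2.57 with covariates (adjusted p = 0.416), and -4.18 without GFP-crush replicate 2. In the fit without covariates it was -2.12 and called (adjusted p = 0.0474), though not without α9k1-crush replicate 1 or 4 or GFP-crush replicate 3. *Gfra2* was at 3.13, 5.14, 4.12 and 2.80 in α9k1-crush libraries 1 to 4 and at 5.45, 4.01, 4.96 and 4.66 in GFP-crush libraries, and these overlapped. The difference was -1.62 with covariates (SE 1.08, adjusted p = 0.698), from -2.85 without GFP-crush replicate 2 to -0.93 without α9k1-naive replicate 4, and -0.97 and called without covariates (adjusted p = 0.0645), though not without replicate 1 or 4 of α9k1-crush or replicate 1 or 3 of GFP-crush (-0.91 to -0.64). It averaged 5.25 ± 0.37 (SD, n = 5) in GFP-naive and 4.35 ± 0.53 (n = 6) in α9k1-naive, which overlapped too, and the log2 fold change of -1.04 was not called (interval -2.10 to 0.01, adjusted p = 0.148). Without covariates it was -0.90 and was called (adjusted p = 0.0590), though not without replicate 1 or 4 of either group (-0.83 to -0.80, adjusted p = 0.106 to 0.126). With covariates it was called without α9k1-crush replicate 2 (-1.17), α9k1-naive replicate 3 (-1.14) or GFP-crush replicate 2 (-1.24), whereas it was -0.69 without GFP-naive replicate 4 (adjusted p = 0.450). A fit to these groups alone gave -1.25, which was called (adjusted p = 0.0635).

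Among the α9k1-crush libraries, replicate 1 was low in markers of peptidergic nociceptors. The 6 measured markers had a summed level of 9.32 there, and of 12.17, 11.61 and 11.63 in replicates 2 to 4. The latter were near the 11.40 to 12.71 of GFP-crush, though *Gfra3* in replicate 4 was about as low as in replicate 1. The sum of the 7 measured non-peptidergic markers was 6.75 to 7.59 in α9k1-crush, 6.50 to 7.31 in GFP-crush and 7.41 to 8.33 in α9k1-naive. *Gfra3* correlated with the peptidergic sum at r = 0.80, and at 0.66 within groups, and with the non-peptidergic sum at 0.65 and 0.57. *Gfra2* correlated with the non-peptidergic sum at 0.46, and at 0.60 within groups. The part of neuronal composition in these differences was not tested.

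Among the 9 genes, the pairs that varied together within groups were few. After values were centred within each group, *Gfra2* and *Gfra3* had the highest correlation across the 19 libraries (r = 0.81), followed by *Ret* and *Gfra2* (0.62). The lowest were *Bdnf* and *Ret* (-0.63), *Bdnf* and *Gfra2* (-0.60) and *Ngfr* and *Ret* (-0.57). Without centring, *Ngfr* ran opposite to *Ntrk2* (-0.78) and *Gfra3* (-0.75), and within groups these were -0.47 and -0.46. These are descriptions over libraries that share depth and composition.

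**Figure D4:**
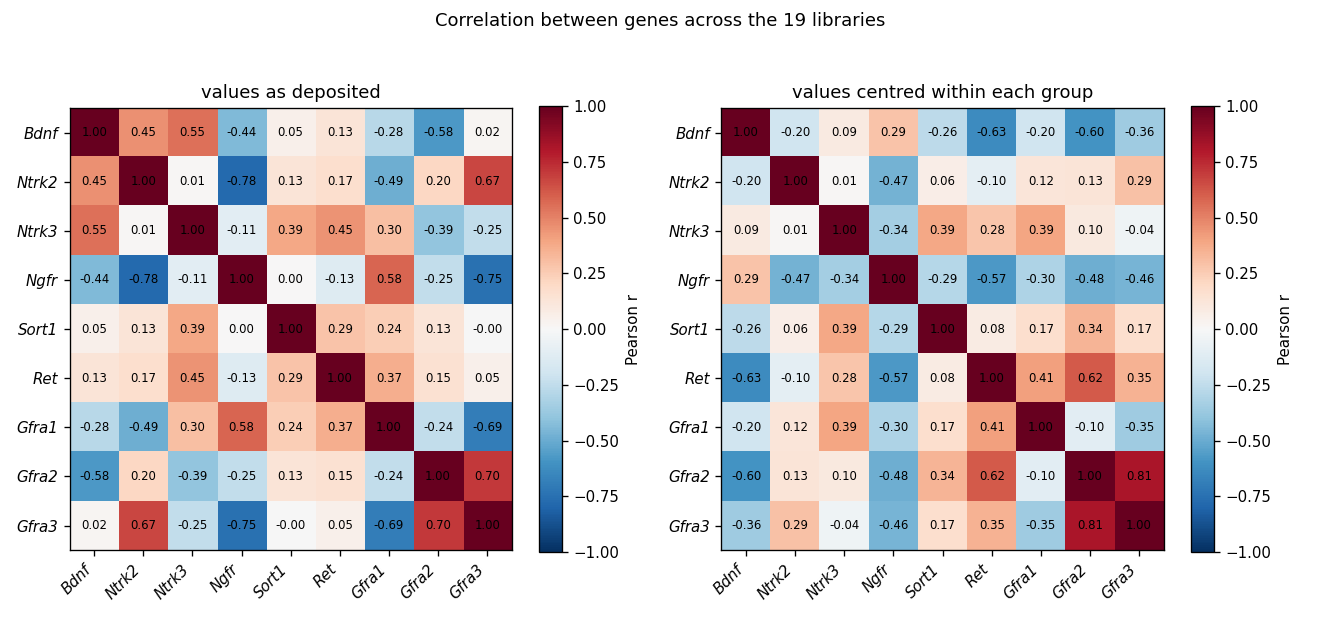
Pearson correlation of each pair of the 9 genes across the 19 libraries, for deposited log2 values (left) and for values centred within each of the 4 groups (right); the number in each cell is r. The highest value within groups is that of *Gfra2* and *Gfra3* (0.81), and *Ntrk2* and *Ngfr* run opposite in both panels (-0.78 and -0.47).

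The genes outside this set whose deposited values were most like a member's across the 19 libraries were named by their Pearson r, the 2 highest for each. For *Bdnf* these were *Isca1* (0.93) and *Fosl1* (0.92), which encodes the AP-1 protein Fra-1. For *Ntrk2* they were *Bmp6* (0.98), a bone morphogenetic protein, and *Cald1* (0.98), an actin-binding protein. *Ngfr* was most like *Rbm11* (0.96) and *Gas6* (0.95), a ligand of TAM receptor kinases, and *Gfra3* was most like *Chrne* (0.96) and *Clic3* (0.94). *Gfra1* was most like *Cacnb4* (0.89) and *Tmod1* (0.88), *Gfra2* most like *Kcnf1* (0.89), a potassium channel subunit, and *Acpp* (0.82), and *Ret* most like *Angel1* (0.84) and *Slc37a2* (0.82). The closest genes to *Ntrk3* were *Gm5912* and *Pde4d* (both 0.76), and those to *Sort1* were *Ascc2* (0.76) and *Trak2* (0.75).

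Of the ligands and other pathway genes, 87 beside the 9 were in the table. Apart from *Bdnf* and the neurturin gene *Nrtn*, no listed ligand gene of either family was measured, so that the supply of the other ligands is not analysed here. *Nrtn* was higher in α9k1-naive than in GFP-naive (3.08 ± 0.31, SD, n = 6, against 2.45 ± 0.30, n = 5) by 0.75 (SE 0.25, adjusted p = 0.0421). Among the 87 genes, 7 rose and 12 fell with α9k1 in naive ganglia (29.1% of all genes called), 3 rose and 16 fell with crush for GFP (23.1% of all genes), and 4 rose and 7 fell with crush for α9k1 (9.74% of all genes). Their median log2 fold changes were 0.03, -0.18 and 0.00. For α9k1-crush versus GFP-crush limma called 0 of them, with 7 at an unadjusted p under 0.05, and for the interaction it called 0, with 18 at an unadjusted p under 0.05. Without covariates, 42 rose and 11 fell in the former (58.0% of all genes called), and 32 interactions were above 0 and 7 below it (39.4% of all genes). The balance of directions depended on the covariates, since without them 23 rose and 16 fell with α9k1 in naive ganglia (46.0% of all genes), and 30 rose and 19 fell with crush for α9k1 (55.6%). With crush for GFP the balance was the same way without them, at 5 and 24 (31.1%).

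*Spry2*, a feedback inhibitor that dampens signalling from receptor tyrosine kinases to ERK, changed in the same directions as *Ntrk2*, with log2 fold changes of 1.72 for α9k1 in naive ganglia (SE 0.15, adjusted p = 1.41e-06), -0.68 for crush with GFP (SE 0.15, adjusted p = 0.0104) and -1.38 for crush with α9k1 (SE 0.28, adjusted p = 0.0101). *Spry1* was at -1.74 and *Lrig1*, a negative regulator of receptor kinases, at -0.85 after crush with GFP. Of the 15 measured genes of feedback and turnover, 2 rose and 4 fell with α9k1 in naive ganglia (29.1% of all genes called), 0 rose and 6 fell with crush for GFP (23.1%), and 1 rose and 1 fell with crush for α9k1 (9.74%). Without covariates these were 3 and 3 (46.0%), 0 and 7 (31.1%), and 7 and 3 (55.6%). With α9k1 after crush 0 of the 15 were called with covariates in the limma fit (3 at an unadjusted p under 0.05), and 10 rose and 1 fell without (58.0%). Among 11 other receptors and co-receptors, 3 were called lower after crush with either vector (23.1% of all genes called with GFP and 9.74% with α9k1). *Sdc3* (syndecan-3) was at -1.19 with GFP and -1.38 with α9k1, *Sorcs2*, a relative of sortilin, at -1.22 and -1.75, and *Ncam1*, an alternative GDNF receptor, at -0.79 and -1.36. Without covariates, 0 of the 11 rose and 3 fell with crush for GFP (31.1%), and 5 rose and 4 fell with crush for α9k1 (55.6%). With α9k1 in naive ganglia 0 rose and 2 fell (29.1%), against 3 and 3 without covariates (46.0%). *Sorl1*, another sorting receptor, had a log2 fold change of -1.52 for α9k1 in naive ganglia (SE 0.35, adjusted p = 0.00599). Among 10 adaptors of p75NTR, *Ripk2* (0.93) and *Maged1* (0.38) were higher in α9k1-naive (29.1% of all genes called), whereas *Ngfr* itself was lower. With crush for GFP *Aatf* (0.41) rose and *Irak1* (-0.37) fell (23.1%). Without covariates 3 rose and 1 fell (46.0%), and 1 rose and 3 fell (31.1%). Of 8 genes of proneurotrophin processing, *Plat*, the gene of tissue plasminogen activator, was at 0.87 for α9k1 in naive ganglia, -0.45 for crush with GFP and -1.25 for crush with α9k1, and *Pcsk7*, a proprotein convertase, was at -0.51 for α9k1 in naive ganglia and 1.18 for crush with α9k1. Of 18 adaptors of Trk receptors and Ret, 1 rose and 2 fell with crush for GFP (23.1% of all genes called). With crush for α9k1 1 rose and 0 fell (9.74%), and with α9k1 in naive ganglia 0 rose and 1 fell (29.1%). *Dok5*, a docking protein, was the one that rose after crush (0.88 with GFP and 1.75 with α9k1), *Gab1* (-0.62) and *Ptpn11* (-0.30) fell with crush for GFP, and *Frs3* (-0.40) fell with α9k1 in naive ganglia. Without covariates the 18 gave 2 and 4 (31.1% of all genes), 6 and 4 (55.6%), and 4 and 3 (46.0%), and 9 rose and 3 fell with α9k1 after crush (58.0%). Of 24 genes of the Ras-MAPK and PI3K steps, 1 rose and 4 fell with α9k1 in naive ganglia (29.1% of all genes called), among them *Map2k5* (-0.81) and *Rps6ka1* (-0.84). With crush for GFP 1 rose and 3 fell (23.1%), among them *Pik3r2* (-0.57). With crush for α9k1 1 rose and 2 fell (9.74%). Without covariates these were 6 and 5 (46.0% of all genes called), 2 and 6 (31.1%), and 9 and 2 (55.6%), and 12 rose and 3 fell with α9k1 after crush (58.0%). As for the 9 genes, these shares of all genes were high, so such counts are not in themselves a result about the lists.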

How the data were processed

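RNA of GFP-positive DRG cells was sequenced in 19 libraries, grouped by their labels. Libraries were prepared with SMART-Seq v4, which does not mark strand. The authors aligned the reads to mm10/GRCm38 with STAR and obtained read counts per gene with Salmon. The submitters' processing notes also name Picard and limma. After genes with few reads had been removed, the authors took log2 with a small pseudocount and used cqn to adjust for depth and gene length, and these log2 values were deposited. The authors' deposited table of library metrics, from Picard, holds counts of reads and bases, fractions of reads and bases, AT and GC dropout in percent, and coverage biases as ratios. The gene table, in the same row order, gives gene names. Its columns of the authors' own comparisons (log2 fold changes, mean expression, p-values and adjusted p-values) were not used. With this order *Fermt1* was the gene with the largest difference between α9k1 and GFP libraries (rank 1 of 12629).

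limma 3.58.1 in R 4.3.3 fitted the 4 group means and 3 covariates, the first 3 principal components of 48 scaled metrics, to all genes and libraries. Every adjusted p is from limma's moderated test, 2-sided, with Benjamini-Hochberg adjustment over all 12629 genes. The study's model also had a batch term, which the tables used here do not name, so none was fitted. The fit was tested on simulated data. Sums of marker genes are log2 of the summed linear values. As the values are normalized, the counting error of a single value is unknown, and the SD includes it. The study calls the replicates of each condition biological. The labels do not say that libraries came from separate animals, so p-values measure the spread between libraries. Library profiles correlated at r = 0.948 to 0.976 within groups. Alternatives were a fit without covariates, one with only the 2 groups compared, a filter removing the 25% of genes with the lowest mean, quantile normalization, median centring, array weights, the replicate number as a block, and leaving out each library in turn. The quoted leave-one-out fits without covariates were added after seeing the data. The 9 genes were chosen by name, pathway genes are the called ones with the smallest adjusted p in each list, at most 4 per comparison, and the genes most like a member are the 2 with the highest r. The members and lists were chosen with earlier results of these data known. Tables and figures were made with Python 3.11.15, pandas 2.3.3, numpy 2.4.6 and matplotlib 3.10.9. Some genes are not reported here.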

Additional observations from a re-analysis of the deposited data

Results flagged for a closer look

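The α9k1 effect on *Ngfr* after crush was 1.55 higher on the log2 scale than that without crush (limma interaction, adjusted p = 0.0996), with -1.27 without crush and 0.28 after it. This was at the edge of the threshold of 0.1: it was called in 4 of 19 refits with 1 library fewer, and not after median centring (adjusted p = 0.147) or with the replicate block (adjusted p = 0.465). In 1 gene a library stood apart from its group. *Sort1* was at 3.88 in α9k1-naive replicate 3, against 3.43 to 3.58 in the other α9k1-naive libraries, and the gap was 0.673 of the range of the group. Of 36 sets of a gene and a group examined in this way it was the only one, and chance alone sets apart about 1 in 20.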

How the results depend on the processing

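Of the 7 called differences of the 9 genes, the 6 other than the *Ngfr* interaction kept their direction and call without covariates, with array weights, without the lowest 25% of genes and under quantile normalization and median centring. In fits to the 2 groups alone, *Ntrk2* in α9k1-naive versus GFP-naive (0.26, adjusted p = 0.165) and *Ntrk2* (-1.25, adjusted p = 0.230) and *Ngfr* (2.43, adjusted p = 0.126) in α9k1-crush versus α9k1-naive were not called. Calls gained there were *Gfra2* in the former comparison (-1.25, adjusted p = 0.0635) and *Gfra3* in the latter (-6.88, adjusted p = 0.0973). *Gfra3* in the latter was also called with array weights (-3.29, adjusted p = 0.0516). The *Ngfr* interaction was not called after median centring (1.42, adjusted p = 0.147). Replicate numbers did not pair the libraries (r of the deviations of same-numbered libraries -0.269 to 0.149, over 0.1 in 4 of 25 pairs), and with the number as a replicate block *Ngfr* in α9k1-crush versus α9k1-naive (1.14, adjusted p = 0.287) and its interaction (1.14, adjusted p = 0.465) were not called. The number of the 9 genes called, 3 for α9k1-naive versus GFP-naive, was 5 without covariates. For α9k1-crush versus GFP-crush it was 7 in place of 0 without covariates. For α9k1-crush versus α9k1-naive it was 2, against 5 without covariates, 1 with 2 groups (*Gfra3*, which the main fit did not call), 1 with the replicate block and 1 to 3 when a library was left out. For the interaction it was 1, against 3 without covariates, 0 after median centring, 0 with the replicate block and 0 to 1 when a library was left out. In all these the cause was not tested.

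Directions that turned were all of differences not called with covariates, though 4 of these (*Gfra1*, *Ngfr* and *Ret* in α9k1-crush versus GFP-crush, *Bdnf* in α9k1-crush versus α9k1-naive) were called without covariates. With 2 groups these were *Ret* (-0.016) in α9k1-naive versus GFP-naive, *Sort1* (-0.73) and *Gfra1* (-0.59) in α9k1-crush versus GFP-crush, *Ntrk3* (-0.081), *Ngfr* (0.015) and *Gfra1* (-0.0042) in GFP-crush versus GFP-naive, and *Bdnf* (0.33) and *Ret* (-0.86) in α9k1-crush versus α9k1-naive. With the replicate block they were *Ret* (-0.0083) and *Ngfr* (-0.34) with α9k1 in naive and crushed ganglia, *Gfra1* (-0.082) with crush for GFP, *Sort1* (0.40) and *Gfra2* (0.11) with crush for α9k1, and the interactions of *Bdnf* (0.0053), *Ntrk2* (-0.074) and *Gfra2* (0.21). Without covariates they were *Gfra1* (-0.10) with crush for GFP, *Sort1* (0.085) with crush for α9k1 and the *Ntrk2* interaction (-0.39). With quantile normalization and median centring they were *Sort1* (-0.038 and -0.069) for α9k1 after crush, *Ret* (0.0066 and 0.11) and *Gfra2* (0.0061 and 0.059) with crush for GFP, and the interactions of *Ntrk2* (-0.083 and -0.13) and *Sort1* (-0.030 and -0.035), and with centring also *Ngfr* (0.033) with crush for GFP. With array weights they were the interactions of *Bdnf* (0.00064) and *Ntrk2* (-0.060).

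When 1 library was left out, the differences that turned ranged as follows. With α9k1 in naive ganglia *Ret* ranged from -0.10 to 0.17 and *Sort1* from -0.19 to 0.023. With α9k1 after crush *Gfra1* ranged from -0.41 to 0.93, *Ngfr* from -0.15 to 0.53, *Ret* from -0.19 to 0.59 and *Sort1* from -0.29 to 0.45. With crush for GFP *Gfra1* ranged from -0.088 to 0.31, *Gfra2* from -0.35 to 0.32, *Gfra3* from -0.55 to 0.27, *Ngfr* from -0.17 to 0.0069 and *Ret* from -0.19 to 0.11. With crush for α9k1 *Gfra2* ranged from -1.29 to 0.16, *Ret* from -0.10 to 0.58 and *Sort1* from -0.35 to 0.13. The interactions ranged from -0.39 to 0.30 for *Bdnf*, -0.17 to 0.13 for *Ntrk2*, -0.15 to 0.63 for *Ret*, -1.61 to 0.049 for *Gfra2* and -0.10 to 0.48 for *Sort1*.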
